A study of Mus musculus with 12 samples.

Results

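The transcription factor ATF4, its partner and target CHOP (gene Ddit3) and 8 enzymes of asparagine, serine and folate metabolism were followed in mouse bone marrow-derived macrophages with and without the kinase LKB1. The genes were taken by name as Atf4, Ddit3, Asns, Phgdh, Psat1, Psph, Shmt1, Shmt2, Mthfd1 and Mthfd2, and all 10 had a row among the 13715 genes of the deposited count table. Marrow cells of mice labelled WT or LysMCre Stk11 fl/fl (KO below) were grown in M-CSF at 40 ng/ml over 7 days, which yields macrophages, and then received IL-4 at 20 ng/ml over 24 h or no IL-4 (mock). This gave 4 groups (WT mock, KO mock, WT IL-4 and KO IL-4) with 3 RNA-seq libraries each. Stk11 encodes LKB1, which activates AMPK and related kinases, and the LysM promoter of the Lyz2 gene drives Cre in cells of the myeloid lineage. The labels give no further allele for the WT mice and do not say whether replicates came from separate animals, so p-values measure the spread between these libraries, part of which may be technical.

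As background, ATF4 is a basic leucine zipper factor whose mRNA is translated preferentially when the initiation factor eIF2alpha is phosphorylated by a stress-sensing kinase, so its protein can change while its mRNA does not. It binds amino acid response elements and raises transcription of amino acid transporters, tRNA synthetases and synthesis enzymes, Asns, Psat1 and Mthfd2 among them. Serine is made from a glycolytic intermediate by PHGDH, PSAT1 and PSPH in turn, and the hydroxymethyltransferases and MTHFD enzymes pass a carbon of serine to folate in mitochondria (SHMT2, MTHFD2) or in the cytosol (SHMT1, MTHFD1) for nucleotide synthesis. IL-4 drives macrophages toward alternative activation.

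The libraries held 30651627 to 39136822 counts each. Stk11, the targeted gene, was at 37.7 to 46.0 CPM (a gene's share of all counts, on a scale common to all libraries, corrected between libraries by TMM factors) in WT mock and 3.87 to 8.77 in KO mock. For KO against WT its log2 fold change was −2.84 in mock, with an SE of 0.24 and an adjusted p of 3.85e-06. With IL-4 it was −2.55, with the same SE of 0.24 and an adjusted p of 8.99e-06, in the direction of the labels. Lyz2 stood at 28471 to 44637 CPM in the WT libraries and at 15362 to 21618 in the mock and IL-4 libraries of KO replicates 1 and 3. In the mock and IL-4 libraries of KO replicate 2 it stood at 43.2 and 43.4 CPM. For that reason counts of called genes are also given without both of these libraries. The 6 macrophage markers searched (Adgre1, Csf1r, Cd68, Itgam, Fcgr1 and Mertk) were all in the table. Their summed level was 7049 to 7316 CPM in WT mock, 6541 to 6875 in KO mock, 7983 to 8438 in WT IL-4 and 7894 to 8219 in KO IL-4. In KO mock 3 of the 6 were called lower and 1 higher, and with IL-4 1 was called lower and 1 higher. Over all genes, 18.8% were called lower and 15.7% higher in mock, and 10.2% and 8.57% with IL-4. Genes listed as markers of neutrophils and of erythroid cells and megakaryocytes also moved with genotype. The summed level of 9 neutrophil markers was 197 to 320 CPM in WT mock and 563 to 1078 in KO mock, and 184 to 288 against 424 to 862 with IL-4. Of the 9, 8 were called higher in KO mock and 7 with IL-4, and 0 lower. The largest means in KO mock were those of Ltf (219 CPM), Mmp8 (209) and Ngp (183). Mpo, at a low level, went the other way, from a mean of 0.561 to 0.316 CPM in mock and from 0.755 to 0.136 with IL-4. Klf1, Pf4 and Ppbp, the 3 erythroid or megakaryocyte markers in the table, summed to 39.6 to 57.7 CPM in WT mock and 574 to 645 in KO mock. Nearly all of that sum was Pf4, at 39.5 to 57.6 CPM in WT mock and 573 to 643 in KO mock. In KO mock Klf1 was at most 0.393 CPM and Ppbp at most 1.16. The globins Hba-a1, Hba-a2, Hbb-bs and Hbb-bt were not analysed here. Of the B and T cell (2 in the table), mast cell and basophil (3) and fibroblast (2) markers, none was called for KO against WT by edgeR or DESeq2, while 1, 1 and 0 had an unadjusted p under 0.05 in mock and 0, 1 and 0 with IL-4. The B and T cell sum was 1.81 to 1.97 CPM in WT mock and 2.07 to 2.29 in KO mock, and the highest sum of the other lists in a library was 2.46 CPM for mast cells and basophils and 11.5 CPM for fibroblasts. Of 20 proliferation genes, 19 fell in KO under either treatment, beside 18.8% of all genes called lower in mock and 10.2% with IL-4. Their summed level was 673 to 759 CPM in WT mock and 363 to 473 in KO mock.

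With these values beside it, the comparison of KO with WT was as follows. In mock cells, Phgdh, Mthfd2 and Asns fell and Psph rose, while the other 6 genes did not pass an adjusted p of 0.05 in edgeR's quasi-likelihood test. Thus 4 of 10 genes were called, against 34.5% of all genes tested, a share near the background. The 3 that fell compare with 18.8% of all genes called lower, and the 1 that rose with 15.7% called higher. With IL-4, Psat1, Phgdh, Mthfd2 and Asns fell and none rose, so that 4 of 10 were called against 18.8% of all genes. Over all genes, 10.2% were called lower and 8.57% higher. Without both libraries of KO replicate 2 there were 5 called genes in mock and 3 with IL-4. Over all 13715 genes, that setting called 3980 in mock (1907 higher and 2073 lower) and 1596 with IL-4 (715 higher and 881 lower). With all libraries 4731 and 2579 were called. The median log2 fold change of the 10 genes was −0.07 in mock and −0.23 with IL-4, beside −0.02 and −0.01 over all genes. In bulk RNA a lower level in KO cannot be told apart from fewer cells of a type that expresses the gene, and the part of the neutrophil, megakaryocyte and proliferation genes above in these differences was not tested.

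IL-4 had fewer calls among the 10 genes. The main tests did not pair the mock and IL-4 libraries that carry 1 replicate number. In WT cells, Asns fell and no other gene was called, against 26.7% of all genes (13% lower and 13.6% higher). Paired by that number, 3 of the 10 genes were called in WT (Psat1 higher, Asns and Mthfd2 lower), beside 4592 of all genes. In KO cells, Asns and Shmt1 fell, against 30.3% of all genes (14.2% lower and 16% higher). With the pairing the same 2 genes were called in KO, beside 5284 of all genes. In mock, the KO libraries did not overlap the WT libraries for 5 of the 10 genes (3 lower, and Ddit3 and Psph higher), beside 47.7% of all genes (25% lower and 22.7% higher). With IL-4 they did not overlap for 4 genes, all lower, beside 35.9% (18.8% lower and 17.1% higher). In WT, the IL-4 libraries did not overlap the mock libraries for 3 genes (Asns and Mthfd2 lower, Ddit3 higher), beside 38.3% (19.7% lower and 18.6% higher). In KO they did not overlap for 5 genes (Asns, Psph, Shmt1 and Shmt2 lower, Phgdh higher), beside 47.7% (24.2% lower and 23.5% higher). The difference between the IL-4 responses of KO and WT (the interaction of genotype and IL-4) was called for 0 of the 10 genes by edgeR and by DESeq2, against 0.736% of all genes by edgeR (0.328% higher and 0.408% lower). At an unadjusted p under 0.05, edgeR gave 1 of the 10, Psat1. With the pairing the interaction was again called for 0 of the 10 genes. Over all genes it was then called for 1596 (891 higher and 705 lower), beside 101 without the pairing.

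**Figure D1:**
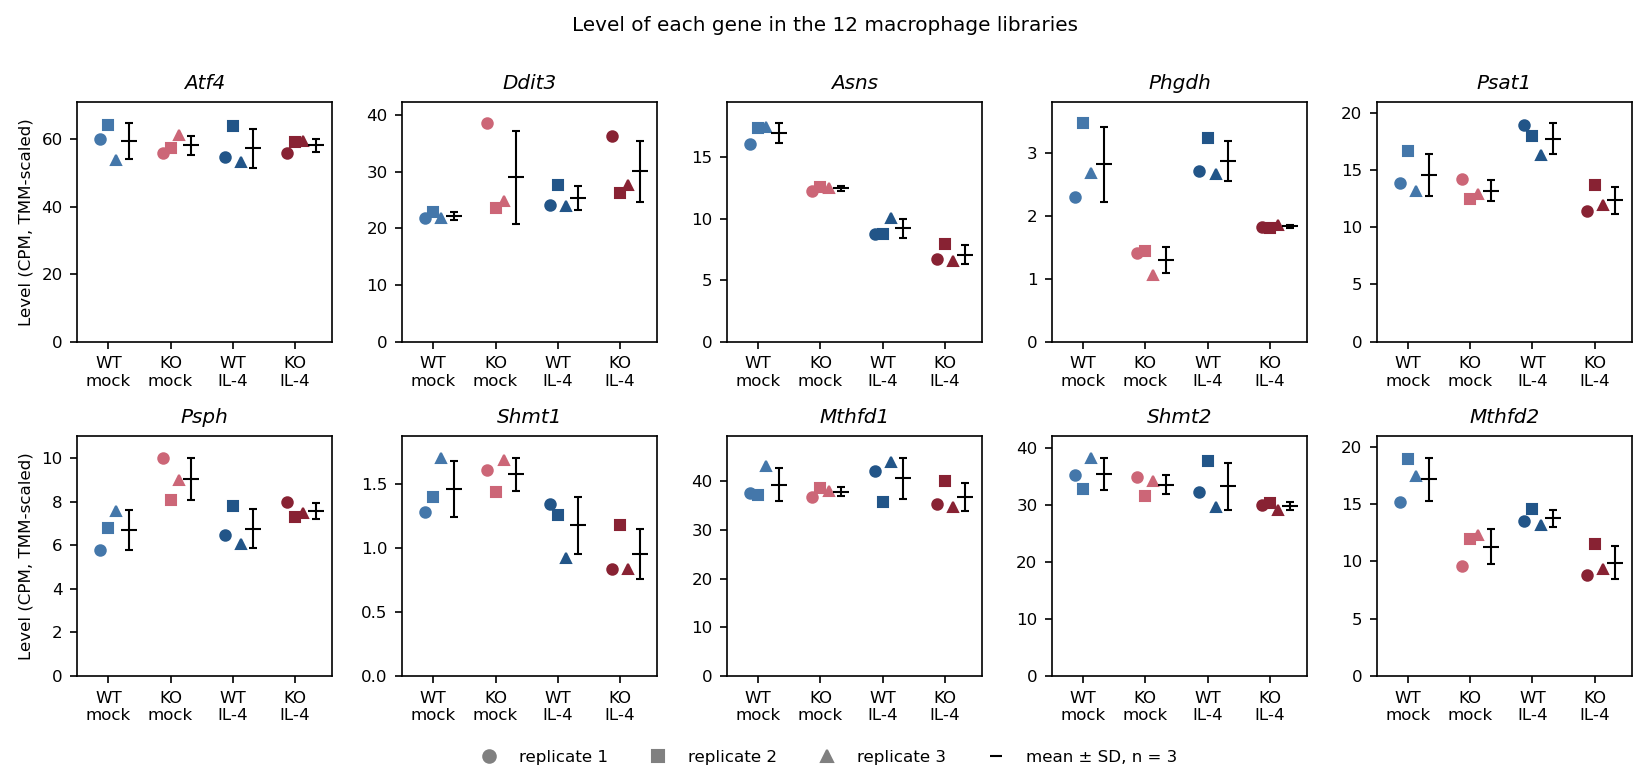
Level of each of the 10 genes in each of the 12 libraries, in CPM with TMM scaling on axes that start at 0. Symbols mark the replicate number and bars the mean ± SD of 3 libraries. Atf4 lies between 53.2 and 64.2 CPM throughout, whereas the Asns groups step down from 16.9 to 7.07 CPM.

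No comparison of Atf4 mRNA was called. Its mean was 59.4 ± 5.24 CPM in WT mock, 58.1 ± 2.71 in KO mock, 57.3 ± 5.79 in WT IL-4 and 58.1 ± 1.99 in KO IL-4 (SD, n = 3 each). All 12 libraries lay between 53.2 and 64.2 CPM and every pair of groups overlapped. The log2 fold change for KO against WT was −0.03 in mock (95% interval −0.21 to 0.15) and 0.02 with IL-4 (−0.16 to 0.20). An offset that removes each library's trend with gene length moved the mock value to −0.20, with an adjusted p of 0.052.

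Ddit3 encodes CHOP, a factor induced by ATF4 in prolonged stress. It stood at 21.8, 23.0 and 21.8 CPM in the 3 WT mock libraries and at 38.5, 23.6 and 24.9 in KO mock. With IL-4 the values were 24.2, 27.7 and 24.0 CPM in WT and 36.3, 26.3 and 27.6 in KO. KO replicate 1 was the highest library under both treatments, and the KO mock libraries lay just above all WT mock libraries, while the groups with IL-4 overlapped. The log2 fold change in mock was 0.38 (SE 0.16, 95% interval 0.03 to 0.73, adjusted p = 0.0839). DESeq2 called it (adjusted p = 0.0461), as did edgeR without both libraries of KO replicate 2 (0.0264), without the mock library of that replicate (0.0327) or without the IL-4 library of KO replicate 1 (0.0477). The mock value was 0.17 with the length offset and 0.14 without the mock library of KO replicate 1. With IL-4 the log2 fold change was 0.25 (95% interval −0.10 to 0.60, adjusted p = 0.331). The Ddit3 exons share 68 bases with Mars on the other strand, and Mars was called in no comparison. They also share 105 bases with another gene record named Ddit3 on the same strand and 13 with Gm4189 on the other strand, neither of which was analysed here.

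The upstream sequences of the genes that fell in KO under both treatments are shown because these 3 genes moved in 1 direction in the same comparisons. RefSeq (GRCm38.p6) gives a window from 250 bases before to 50 bases after the start for all 10 genes, 11 windows in all, since Psat1 has 2 starts. Each window was searched on both strands for TGATGNAA, the core of the element bound by C/EBP and ATF factors, for TGACGTNA (a CRE-like site), for CACGTG (an E-box), for CCAAT (bound by NF-Y) and for TTTNGCGC (an E2F-like site). TGATGNAA occurred in the Asns window alone, where it begins 23 bases before the start, and in 3.97% of all 32851 promoters. In human cells the ASNS promoter is known to carry a nutrient-sensing element of this kind. In the Asns window (chr6:7693160-7693459, GRCm38.p6, minus strand) the capitals mark that match.
Asns: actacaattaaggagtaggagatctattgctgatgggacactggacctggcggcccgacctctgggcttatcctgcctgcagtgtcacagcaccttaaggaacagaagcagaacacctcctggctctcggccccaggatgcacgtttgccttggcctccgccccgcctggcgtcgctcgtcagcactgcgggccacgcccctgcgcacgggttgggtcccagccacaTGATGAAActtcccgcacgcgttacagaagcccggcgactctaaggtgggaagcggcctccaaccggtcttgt
The Phgdh window (chr3:98339920-98340219, minus strand) and the Mthfd2 window (chr6:83317555-83317854, minus strand) have CCAAT, or its reverse complement ATTGG, in capitals. The RefSeq start of Mthfd2 lies inside the longer gene span of the deposited table.
Phgdh: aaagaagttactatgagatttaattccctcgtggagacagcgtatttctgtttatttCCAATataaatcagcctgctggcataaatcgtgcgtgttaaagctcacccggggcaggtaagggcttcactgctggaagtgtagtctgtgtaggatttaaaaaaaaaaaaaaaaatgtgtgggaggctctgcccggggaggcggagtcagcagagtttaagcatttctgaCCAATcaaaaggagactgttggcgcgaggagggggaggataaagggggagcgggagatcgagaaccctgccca
Mthfd2: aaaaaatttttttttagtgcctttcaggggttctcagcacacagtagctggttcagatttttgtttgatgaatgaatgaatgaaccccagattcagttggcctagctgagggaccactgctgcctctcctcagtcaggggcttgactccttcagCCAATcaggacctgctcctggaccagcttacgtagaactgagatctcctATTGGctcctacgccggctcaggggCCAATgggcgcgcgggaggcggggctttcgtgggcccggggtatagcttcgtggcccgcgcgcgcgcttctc
Phgdh held CCAAT at 2 places and Mthfd2 at 3. A CCAAT match was found in 8 of the 10 genes, all but Asns and Shmt2, and in 37.4% of all promoters. TGACGTNA, CACGTG and TTTNGCGC were found in none of the 10 genes, beside 2.93%, 7.15% and 1.38% of all promoters. A match is a description of letters, and its absence says only that these letters are not in these windows.

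Asns makes asparagine from aspartate and glutamine and lies at chr6:7675169-7693254 on the minus strand of mm10. It was lower in KO and lower with IL-4. The 3 libraries held 16.0, 17.4 and 17.4 CPM in WT mock and 12.2, 12.6 and 12.5 in KO mock. With IL-4 they held 8.78, 8.74 and 10.1 CPM in WT and 6.73, 7.94 and 6.54 in KO. Each group lay apart from the next, in the order WT mock, KO mock, WT IL-4, KO IL-4. KO mock reached 0.735 of the WT mock level, a log2 fold change of −0.45 (SE 0.10, 95% interval −0.65 to −0.24, adjusted p = 0.00288). With IL-4 the KO level was 0.770 of WT (log2 fold change −0.38, SE 0.10, adjusted p = 0.0172). That call was lost without WT IL-4 replicate 3 (adjusted p = 0.0769) and without KO IL-4 replicate 1 (0.0841) or 3 (0.0912), whereas the mock call held under every alternative run. With IL-4 Asns fell to 0.543 of mock in WT (log2 fold change −0.88, SE 0.10, adjusted p = 8.23e-06) and to 0.569 in KO (−0.81, SE 0.10, adjusted p = 2.56e-05). Taken by replicate number, the log2 difference between IL-4 and mock was −0.86, −0.99 and −0.79 in WT and −0.86, −0.66 and −0.93 in KO, lower in 6 of 6. The interaction was 0.07 (95% interval −0.23 to 0.37, adjusted p = 0.829), so a difference between the responses was not detected.

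Phgdh, the enzyme that commits the glycolytic intermediate to serine, had the largest fall among the 10 genes in KO. Its 3 libraries held 2.31, 3.47 and 2.69 CPM in WT mock and 1.41, 1.44 and 1.06 in KO mock, and 2.72, 3.24 and 2.67 in WT IL-4 and 1.83, 1.81 and 1.86 in KO IL-4. All 6 KO libraries lay below all 6 WT libraries. These levels rest on 35 to 121 counts in a library. KO mock was at 0.462 of WT (log2 fold change −1.11, SE 0.20, 95% interval −1.54 to −0.69, adjusted p = 0.000773), a call that held under every alternative run. With IL-4 KO was at 0.638 of WT (log2 fold change −0.65, SE 0.19, 95% interval −1.05 to −0.24, adjusted p = 0.0266). This second call was lost without both libraries of KO replicate 2 (adjusted p = 0.0915), without any single KO IL-4 library (0.0711 to 0.0807) and without WT IL-4 replicate 1 (0.0587) or 2 (0.0898). For IL-4 against mock, Phgdh had a log2 fold change of 0.03 in WT (95% interval −0.36 to 0.42). In KO the IL-4 libraries all lay above the mock libraries, with a log2 fold change of 0.49 (95% interval 0.06 to 0.93, adjusted p = 0.0804). The length offset brought that value to 0.61, with an adjusted p of 0.0254.

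Psat1, which makes phosphoserine, differed by genotype with IL-4. Its libraries held 13.8, 16.6 and 13.2 CPM in WT mock and 14.2, 12.5 and 12.9 in KO mock, which overlapped. With IL-4 they held 18.9, 17.98 and 16.3 CPM in WT and 11.4, 13.7 and 11.9 in KO, with every KO library below every WT library. The log2 fold change for KO against WT was −0.52 with IL-4 (SE 0.11, 95% interval −0.76 to −0.29, adjusted p = 0.0037) and −0.14 in mock (95% interval −0.38 to 0.09, adjusted p = 0.338). The call with IL-4 held under every alternative run. IL-4 against mock gave 0.29 in WT (SE 0.11, adjusted p = 0.064) and −0.09 in KO (adjusted p = 0.559). With the culture, that is the mock and IL-4 library of 1 replicate number, as a block, the WT value of 0.29 was called at an adjusted p of 0.0349. The interaction was −0.38 (SE 0.15, 95% interval −0.71 to −0.05), with an unadjusted p of 0.0265 and an adjusted p of 0.204, and 0.0957 with the block.

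Psph removes the phosphate to give serine, and it moved against Phgdh in mock cells. WT mock held 5.77, 6.78 and 7.59 CPM and KO mock 10.03, 8.09 and 9.01. With IL-4 the values were 6.48, 7.80 and 6.05 CPM in WT and 8.003, 7.28 and 7.51 in KO. The KO mock libraries were above all 3 WT mock libraries, and the groups with IL-4 overlapped. Psph rose 1.34-fold in KO mock (log2 fold change 0.43, SE 0.13, 95% interval 0.15 to 0.71, adjusted p = 0.0216), a call lost without WT mock replicate 1 (0.0727) or KO mock replicate 1 (0.0812). With IL-4 the value was 0.16 (95% interval −0.12 to 0.44, adjusted p = 0.439). Psph shares 452 exon bases with Cct6a, a chaperonin subunit on the other strand. Since no source used here says that strand was used in counting, reads of the shared stretch cannot be assigned to either gene. Cct6a was called in no comparison, and its log2 fold change for KO against WT mock was 0.07 (adjusted p = 0.366).

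The proportions of the serine genes are given as a description. Per length of gene, the ratio of Psat1 to Phgdh was 3.06 ± 0.391 in WT mock and 6.03 ± 1.04 in KO mock, and 3.62 ± 0.415 in WT IL-4 and 3.93 ± 0.422 in KO IL-4 (SD, n = 3 each).

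**Figure D2:**
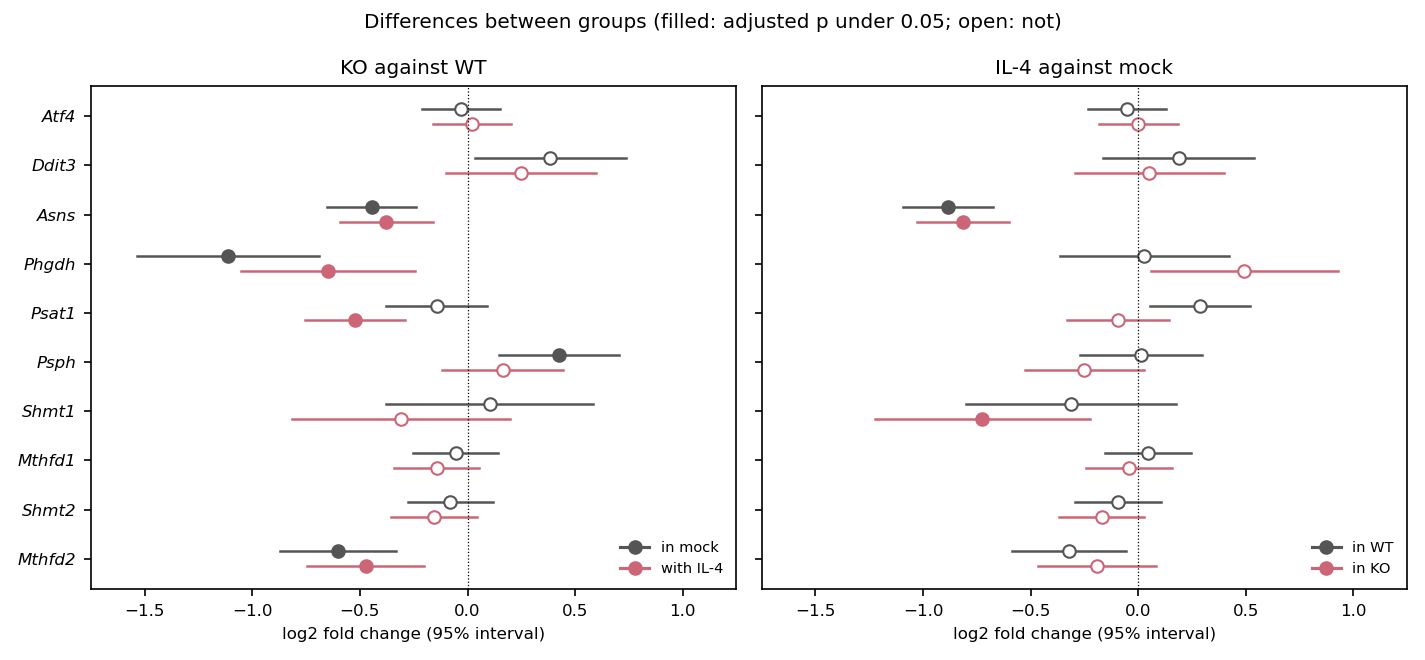
Log2 fold change of each gene with its 95% interval from edgeR, with the genotype comparison under each treatment on the left and the IL-4 comparison in each genotype on the right. Filled points have an adjusted p under 0.05: 4 and 4 genes on the left, 1 and 2 on the right.

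Of the mitochondrial folate enzymes, Mthfd2 fell in KO and Shmt2 was not called. Mthfd2, which oxidises methylene-tetrahydrofolate, held 15.2, 18.9 and 17.5 CPM in the WT mock libraries and 9.57, 11.99 and 12.3 in KO mock. With IL-4 it held 13.5, 14.6 and 13.2 CPM in WT and 8.78, 11.6 and 9.38 in KO. All 6 KO libraries lay below all 6 WT libraries. KO was at 0.658 of WT in mock (log2 fold change −0.60, SE 0.13, adjusted p = 0.00227), a call that held under every alternative run. With IL-4 KO was at 0.720 of WT (log2 fold change −0.47, SE 0.13, adjusted p = 0.0171), a call lost without WT IL-4 replicate 1 (0.0544) or KO IL-4 replicate 1 (0.0955) or 3 (0.0785). The log2 difference between IL-4 and mock was below 0 in all 6 replicate numbers. It was −0.32 in WT (SE 0.12, adjusted p = 0.0725), which was called with the culture as a block (−0.32, adjusted p = 0.0167), and −0.19 in KO (adjusted p = 0.286).

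Shmt2 splits serine into glycine and a folate-bound carbon in mitochondria. Its mean level was 35.5 ± 2.75 CPM in WT mock, 33.6 ± 1.73 in KO mock, 33.3 ± 4.12 in WT IL-4 and 29.9 ± 0.660 in KO IL-4 (SD, n = 3 each). The KO IL-4 libraries, at 29.2 to 30.5 CPM, lay below all KO mock libraries, at 31.7 to 34.9. No comparison of Shmt2 was called, and its log2 fold change for KO against WT was −0.08 in mock (95% interval −0.28 to 0.12) and −0.16 with IL-4 (−0.35 to 0.04).

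The cytosolic enzymes did not pass the test for KO against WT. Mthfd1, which carries 3 activities of folate metabolism in the cytosol, averaged 39.3 ± 3.39 CPM in WT mock, 37.9 ± 0.957 in KO mock, 40.6 ± 4.24 in WT IL-4 and 36.8 ± 2.94 in KO IL-4 (SD, n = 3 each), and all groups overlapped. Per length, the ratio of Mthfd2 to Mthfd1 was 0.559 ± 0.0772 in WT mock and 0.379 ± 0.0427 in KO mock, and 0.437 ± 0.0720 and 0.342 ± 0.0253 with IL-4. Shmt1, the cytosolic counterpart of Shmt2, had the lowest mean level per kilobase of the 10 genes in all 4 groups, with 27 to 64 counts in a library. It held 1.61, 1.44 and 1.69 CPM in KO mock and 0.838, 1.18 and 0.838 in KO IL-4, so that all IL-4 libraries were lower. In WT it held 1.28, 1.40 and 1.70 CPM in mock and 1.35, 1.26 and 0.921 with IL-4, which overlapped. Shmt1 fell with IL-4 in KO to 0.605 of mock (log2 fold change −0.72, SE 0.23, 95% interval −1.22 to −0.22, adjusted p = 0.0294). That call was lost without KO mock replicate 1 (0.0707) or 3 (0.0821), without KO IL-4 replicate 1 (0.0939) or 3 (0.108), and with the culture block and length offset together (0.05). The value in WT was −0.31 (adjusted p = 0.357), and the interaction was not called. Shmt1 shares 184 exon bases with Smcr8 on the other strand, and Smcr8 rose with IL-4 in KO (log2 fold change 0.91, adjusted p = 0.00237).

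**Figure D3:**
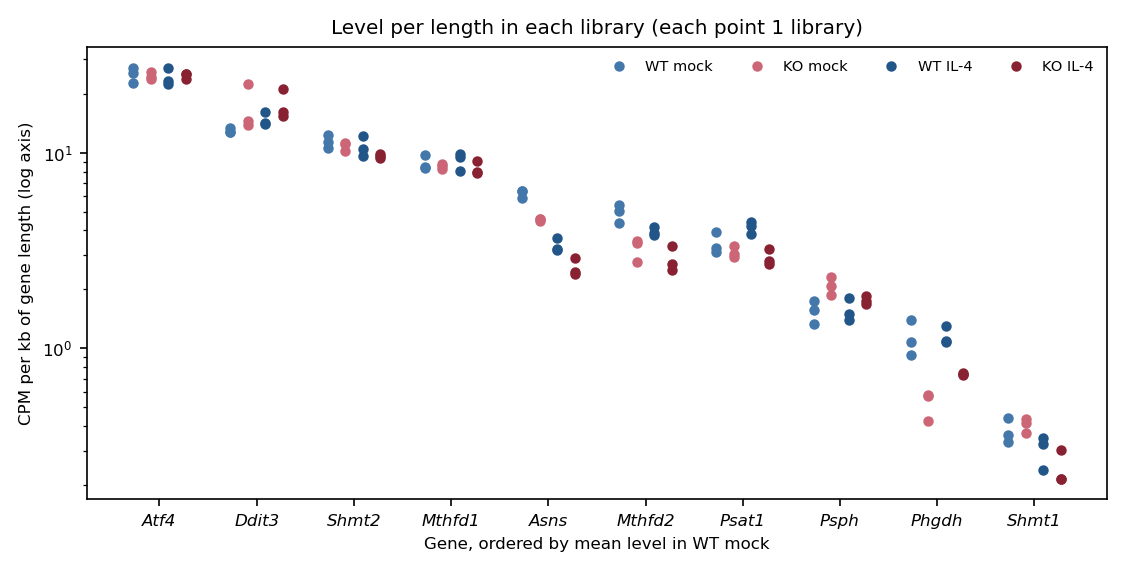
Level of each gene in CPM per kilobase of gene length on a log axis, each point 1 library, with genes ordered by their mean in WT mock. The WT mock means run from 25.2 for Atf4 to 0.377 for Shmt1, and Asns moves from above Mthfd2 and Psat1 in WT mock to below both in WT IL-4.

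Levels of different genes are compared per kilobase of gene length. In WT mock the order of mean CPM per kilobase was Atf4 (25.2), Ddit3 (13.0), Shmt2 (11.4), Mthfd1 (8.85), Asns (6.19), Mthfd2 (4.93), Psat1 (3.42), Psph (1.55), Phgdh (1.14) and Shmt1 (0.377). Only the neighbours Psph and Phgdh overlapped in their libraries there. The upper 4 places were the same in all 4 groups, with overlap of Shmt2 and Mthfd1 in WT IL-4. In KO mock, Mthfd2 overlapped Psat1, and Phgdh, at 0.523 CPM per kilobase, overlapped Shmt1, at 0.406. In WT IL-4, Psat1 (4.17) and Mthfd2 (3.95) overlapped and Asns (3.36) lay below both. In KO IL-4, Psat1 (2.899), Mthfd2 (2.84) and Asns (2.59) followed each other with overlap between neighbours.

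Asns and Phgdh were the genes whose highest and lowest group means differed at least 2-fold, by 2.39-fold and 2.21-fold. Their patterns were compared with those of 8126 well measured genes by the root mean square difference of mean-centred log2 CPM over the 12 libraries, in which samples share depth and scaling. The genes nearest to Asns were Padi2 (0.09), Mid1ip1 (0.10) and Pck2 (0.12), against an Asns range of 1.40 log2 units. Pck2, mitochondrial phosphoenolpyruvate carboxykinase, is also on the list of amino acid synthesis enzymes below. The genes nearest to Phgdh were Serpinb6b (0.20), Cdk1 (0.21) and Dpysl2 (0.22), against a Phgdh range of 1.66. Cdk1, which drives entry into mitosis, is one of the proliferation genes given above.

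Other genes of the pathway did not share 1 direction in KO. Over all genes, 15.7% were called higher and 18.8% lower in KO mock, and 8.57% and 10.2% with IL-4. These shares are the background for each list below. Of 8 amino acid transporters in the table, 2 rose and 5 fell in KO mock, and 2 rose and 3 fell with IL-4, with median log2 fold changes of −0.40 and 0.08. Without both libraries of KO replicate 2, 3 rather than 5 fell in mock. Slc3a2 and Slc7a11, which form the cystine and glutamate exchanger, rose in mock by 0.72 (SE 0.07, adjusted p = 1.54e-05) and 1.247 (SE 0.21, adjusted p = 0.000584) on the log2 scale. Slc7a11 went from 12.5 ± 1.81 to 29.5 ± 10.1 CPM (SD, n = 3 each). Slc7a5, the leucine transporter that pairs with the same heavy chain, fell by 1.05 in mock and 0.80 with IL-4, and Slc7a1, a carrier of arginine and lysine, fell by 1.11 and 1.097. Slc1a5, a glutamine carrier, fell by 0.72 with IL-4.

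Of 18 stress and feedback targets of the response in the table, 8 rose and 2 fell in KO mock, and 7 rose and 1 fell with IL-4, with medians of 0.42 and 0.38, and without both libraries of KO replicate 2 the counts were 7 and 0 in mock and 6 and 1 with IL-4. With all libraries, the shares over all genes were 15.7% higher and 18.8% lower in mock, and 8.57% and 10.2% with IL-4. Without both libraries of KO replicate 2, 1907 of 13715 genes were higher and 2073 lower in mock, and 715 and 881 with IL-4. The genes that fell, named after their values were seen, were Nfe2l1 in mock and Atf3 under both treatments, with log2 fold changes of −0.30 for Nfe2l1 and −0.21 and −0.25 for Atf3, a stress-induced bZIP factor. Vegfa, an angiogenic factor that other stress pathways also induce, was at 46.4 ± 6.92 CPM in WT mock and 138 ± 21.9 in KO mock, and at 13.7 ± 1.30 against 82.7 ± 12.2 with IL-4. The genotype difference was 1.58 on the log2 scale in mock, with an SE of 0.14 and an adjusted p of 4.71e-06. Under IL-4 it reached 2.59, with an SE of 0.15 and an adjusted p of 1.1e-07. Its interaction of 1.02 (SE 0.20) was called at an adjusted p of 0.0361. That call was lost under 10 of 20 alternatives, each of which left out a library, with adjusted p-values up to 0.11. Gdf15, a secreted stress cytokine, rose by 1.26 and 1.36 on the log2 scale in KO mock and KO IL-4. Cebpb, a bZIP partner of ATF4, rose by 1.08 and 0.55, and Sesn2, which restrains mTORC1, rose by 0.54 in mock.

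**Figure D4:**
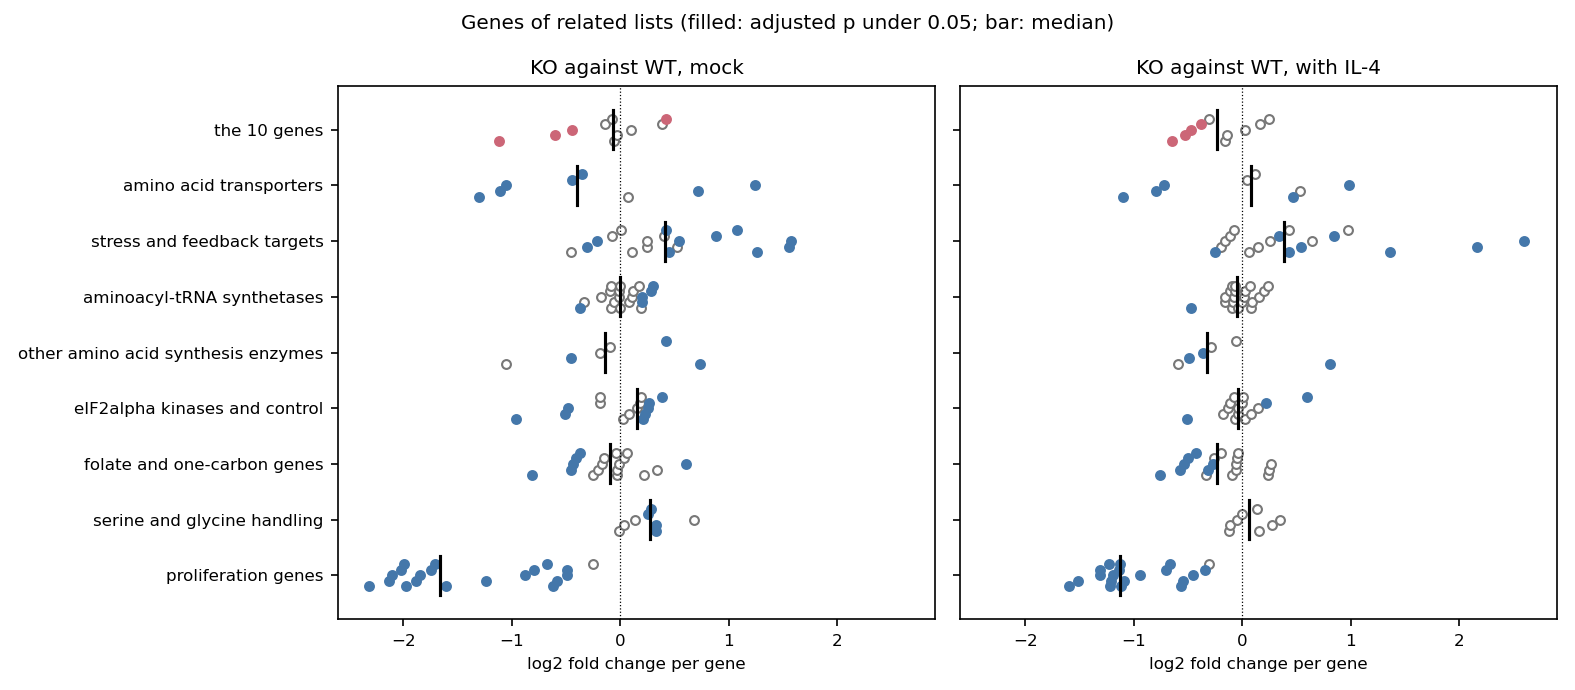
Log2 fold change for KO against WT of the 10 genes and of the genes of 8 related lists, in mock (left) and with IL-4 (right). Filled points have an adjusted p under 0.05 and bars mark the median of each list; 19 of 20 proliferation genes lie to the left in filled points in both panels, while stress and feedback targets have medians of 0.42 and 0.38.

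Of 20 tRNA synthetases, which load amino acids onto tRNAs, 4 rose and 1 fell in KO mock and 0 rose and 1 fell with IL-4 by edgeR (3 and 2 at an unadjusted p under 0.05, and 2 and 1 by DESeq2), with every log2 fold change in mock between −0.37 and 0.30. Vars, the valine enzyme, fell by 0.37 in mock and 0.47 with IL-4. Of 6 other amino acid synthesis enzymes, 2 rose and 1 fell in mock and 1 rose and 2 fell with IL-4. Glul, glutamine synthetase, rose by 0.73 and 0.81, and Pck2 fell by 0.45 and 0.36.

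Of 15 genes of the eIF2alpha kinases and their control, 5 rose and 3 fell in KO mock and 2 rose and 1 fell with IL-4. With the length offset the mock counts were 3 and 3. Gcn1l1, which activates the amino acid-sensing kinase GCN2, fell by 0.96 in mock (SE 0.14, adjusted p = 2e-04). With IL-4 it fell by 0.51 (adjusted p = 0.0182), a call lost without WT IL-4 replicate 1 (0.115) or KO IL-4 replicate 1 (0.0962). Impact, which restrains that kinase, rose by 0.39 and 0.60.

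Of 18 folate and carbon-transfer genes outside the 10, 1 rose and 5 fell in KO mock and 0 rose and 7 fell with IL-4 by edgeR. At an unadjusted p under 0.05 the counts with IL-4 were 3 and 9, and DESeq2 gave 1 and 7. The share that fell with IL-4, 7 of 18, was above the 10.2% of all genes. Since the list was chosen with earlier results of these data known, this is a description and not a test. Without both libraries of KO replicate 2 it was 3 of 18, where 881 of all 13715 genes were called lower. Tyms, thymidylate synthase, fell by 0.81 in mock (SE 0.13, adjusted p = 0.000446). With IL-4 it fell by 0.76 (adjusted p = 0.00105). Atic, of purine synthesis, fell by 0.41 and 0.43, and its mock value was −0.25 with the length offset (adjusted p = 0.0988). Aldh1l1, which oxidises formyl-folate, fell by 0.58 with IL-4. Slc46a1, a folate carrier, rose by 0.60 in mock.

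Of 8 genes of serine and glycine handling, 4 rose in KO mock (Gcsh, Sfxn1, Dld and Srr) and none fell by edgeR or at an unadjusted p under 0.05. Gcsh, a subunit of the glycine cleavage system, rose by 0.33 (SE 0.08, adjusted p = 0.00708), and Sfxn1, which carries serine into mitochondria, by 0.33 (SE 0.08, adjusted p = 0.00743). The Gcsh value was 0.12 with the length offset (adjusted p = 0.17), and the calls of Dld and Srr were each lost under 6 of 19 alternatives. With IL-4 none of the 8 was called by edgeR or DESeq2, with 1 higher at an unadjusted p under 0.05. Without both libraries of KO replicate 2, 2 rose in mock.

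IL-4 itself moved several of these genes in both genotypes. Pck2, like Asns, fell with IL-4, from 27.1 ± 0.458 to 15.2 ± 0.0722 CPM in WT and from 19.7 ± 1.62 to 11.9 ± 0.502 in KO (SD, n = 3 each). Its log2 fold changes were −0.83 (SE 0.08, adjusted p = 2.04e-06) and −0.74 (SE 0.08, adjusted p = 9.42e-06). Among 8 transporters, 4 rose and 2 fell in WT and 4 rose and 1 fell in KO, beside 13.6% of all genes higher and 13% lower in WT and 16% and 14.2% in KO. Slc38a2, a carrier of neutral amino acids, fell by 0.63 in WT and was not called in KO (log2 fold change −0.14, adjusted p = 0.513 by edgeR). Slc7a5 rose by 0.80 in WT and 1.06 in KO, and Slc1a5 by 0.97 and 0.61. Among tRNA synthetases, Rars, the arginine enzyme, rose by 0.66 and 0.71. Gdf15 fell by 0.996 in WT and 0.89 in KO, and Slc46a1 fell by 0.86 and 1.197. The comparisons with IL-4 share libraries with the comparisons of genotype, so their values are given side by side without an overlap.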

How the data were processed

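RNA selection, library kit, strandedness and the handling of multimapping reads were not given in the sources used here. Per the submitters' processing notes, reads were handled with bcl2fastq, STAR 2.7.2b and featureCounts of Subread 1.6.5 on mm10, and edgeR was run. The deposited table holds raw read counts per gene for the 12 libraries, the authors' log2 fold changes and the authors' adjusted p-values. The counts alone were tested here. The authors' log2 fold change of Asns for IL-4 in WT was −0.88 in the authors' deposited table. RNA was extracted with a column kit, per the labels' protocols.

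Counts of all 13715 genes were fitted with edgeR 4.0.16 in R 4.3.3 (TMM scaling, factors 0.942 to 1.02, filterByExpr, which removed 0 genes, 1 coefficient per group, 8 residual degrees of freedom, quasi-likelihood F-test, two-sided). Benjamini-Hochberg adjustment ran over all 13715 genes of a comparison, and a gene was called at an adjusted p under 0.05. Intervals are 95% and use edgeR's moderated degrees of freedom. CPM uses TMM-scaled library sizes, and lengths are those of the deposited table. No gene had fewer than 50 counts over the 12 libraries, and intervals cover the spread between libraries as well as counting. On simulated data the fit found 24% of 1.25-fold and 84% of 2-fold changes for KO against WT in mock. For the interaction it found 32% of 1.5-fold changes. These changes were simulated only in genes with a mean of at least 50 counts in a library, without pairing or a length trend. Shmt1 averaged fewer counts, so these shares do not cover it. When a length trend and no change were simulated in KO mock, 2511 of 13715 genes were called, and 0 with the length offset. The size of that trend was chosen and not fitted to these data.

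The 10 genes, the related lists and the cell type markers were chosen with earlier results of these data known. All 10 are named, and of each list up to 4 called genes with the smallest adjusted p per comparison. Genes like Asns and Phgdh in pattern were the 3 nearest of those with a mean log2 CPM of at least 3 (prior count 2), sought for genes whose group means differ at least 2-fold. Within a genotype, the mock library and the IL-4 library that carry 1 number deviated together from their group means. Their correlations were r = 0.23, 0.49 and 0.41 in WT and 0.55, 0.58 and 0.52 in KO over 8126 genes. All lay above 0.1, so the numbers were taken to pair them as cultures, in the block by culture and not in the main fit. This pairing comes from the data, and WT 1 correlated more with another number (0.27) than with its own. WT and KO libraries of 1 number had r from −0.32 to 0.18, above 0.1 only for number 3 with IL-4. They were not taken as pairs in the main fit. Replicate libraries differed beyond sampling noise (chi-square per degree of freedom 10.6 to 84.6). Gene spans equal those of GENCODE M21, and promoter windows are from RefSeq. Alternatives were DESeq2 1.42.0, library size alone, other filters, a loess offset on gene length, blocks, and leaving out libraries.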

Additional observations from a re-analysis of the deposited data

Results flagged for a closer look

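The response of Vegfa to IL-4 differed between KO and WT in the test of the interaction. Vegfa fell with IL-4 in both genotypes, by 1.76 on the log2 scale in WT and by 0.74 in KO. The interaction was 1.02 (SE 0.20, adjusted p = 0.0361 by edgeR), and that call was lost under 10 of 20 alternatives, with adjusted p-values up to 0.11. The response of Got1, cytosolic aspartate aminotransferase, also differed between genotypes. Got1 went from 60.5 ± 2.75 to 69.5 ± 3.998 CPM in WT and from 81.2 ± 5.37 to 66.9 ± 2.34 CPM in KO (SD, n = 3 each). Its interaction was −0.48 (SE 0.10, adjusted p = 0.0462), and that call was lost under 14 of 20 alternatives, with adjusted p-values up to 0.122. Both genes belong to the related lists and not to the 10 genes. Groups of 3 libraries were not tested for single libraries that stand apart.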

How the results depend on the processing

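Over 21 alternative settings and 980 values of the 10 genes, 35 values changed sign, all for results called in neither fit, 19 calls were lost and 16 gained. The calls of Asns, Phgdh and Mthfd2 in KO mock, of Psat1 in KO with IL-4 and of Asns with IL-4 in both genotypes held throughout. With IL-4 in WT, 2 genes were called instead of 1 under DESeq2, a mean CPM of at least 1 or the length offset, and 3 with the replicate block by culture, with or without the length offset. With 1 library left out, called genes ranged from 1 to 4 for KO against WT with IL-4, from 1 to 2 for IL-4 in WT and from 1 to 2 for IL-4 in KO. The block by number of WT with KO gave 4 and 4 called genes. Apart from Psat1 and Mthfd2 with IL-4 in WT, the block by culture alone changed no other call of the 10 genes. With block and length offset together, Phgdh (0.61, adjusted p = 0.0244) and Ddit3 (0.21, adjusted p = 0.025) were called for IL-4 in KO and Shmt1 was not. Of 111 calls of Stk11 and of list genes that were rerun, 78 held under every alternative and 0 changed sign. The list genes rerun were not always those with the smallest adjusted p. The calls of Vegfa, Cebpb, Gdf15 and Slc3a2 in KO mock, for instance, were not among them and were not checked in this way. The cause of these shifts was not tested.

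Log2 values that changed sign were, without both libraries of KO replicate 2, 0.0018 (Atf4, KO against WT mock), −0.023 (Atf4, IL-4 in KO) and −0.034 (Asns, interaction). With library size alone Mthfd1 came to 0.013 (IL-4 in KO). With the length offset the values were −0.0055 (Phgdh, IL-4 in WT), 0.095 (Ddit3, interaction) and 0.0225 (Shmt2, interaction), the interactions being 0.11 and 0.024 with the replicate block added. Leaving out 1 library in turn spanned −0.077 to 0.058 (Atf4), −0.071 to 0.039 (Mthfd1) and −0.10 to 4e-04 (Shmt2) for KO against WT mock, and −0.019 to 0.11 (Atf4) with IL-4. It spanned −0.14 to 0.031 (Atf4), −0.075 to 0.22 (Phgdh) and −0.10 to 0.13 (Psph) for IL-4 in WT, and −0.030 to 0.038 (Atf4) and −0.094 to 0.30 (Ddit3) for IL-4 in KO. For the interaction it spanned −0.028 to 0.14 (Atf4), −0.30 to 0.11 (Ddit3), −0.045 to 0.12 (Asns), −0.16 to 0.025 (Shmt2) and −0.016 to 0.20 (Mthfd2).

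Over all genes the interaction had 101 calls, 751 under DESeq2, 65 with library size alone (41 higher and 24 lower, beside 45 and 56, and 64 and 49 with the length offset), 1596 with the block, 852 with block and length offset, 0 without both KO replicate 2 libraries and 0 to 102 without 1 library. KO against WT with IL-4 had 2579 calls, 1596 without both KO replicate 2 libraries and 1658 without WT IL-4 replicate 1. In KO mock, 2147 genes were higher and 2584 lower, and 1572 and 2959 with library size alone. With the length offset 4366 were called in KO mock, 3395 of them among the 4731 called without it. Phgdh and Shmt1 had 27 to 121 counts in a library, which limits their precision. A length trend in log2 fold change was largest for KO against WT mock (Spearman −0.49 across 8126 genes, which are not independent replicates).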
